A study of Mus musculus with 12 samples.

Results

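The mitochondrially encoded transcripts of BN1-Tie2-EGFP cells, a murine hepatoblastoma (HB) cell line, are described across normoxia, hypoxia and sorting for EGFP. The members were every row of the deposited expression table whose gene name starts with mt-, which gave 37 of 45706 rows: 13 mRNAs, 2 rRNAs and 22 tRNAs. The cells came from a tumor induced in FVB/N mouse liver by the mutant oncoproteins β-catenin (B) and NRF2 (N), and all 12 libraries share this origin and the Cdkn2a KO genotype of the labels, which the study's methods describe as a mix of CRISPR-made Cdkn2a mutations. They also share a transgene with EGFP under the Tie2 promoter, introduced into cultured cells whose G418-resistant clones were pooled. The 4 groups held 3 libraries each. Unsorted cells were grown in 21% oxygen (UN) or were moved to 1% oxygen for 2 days (UH). For the other groups, the brightest EGFP+ cells were collected by sorting after 2 days of 1% oxygen and grown for about 10 days in normoxia (SN), and part of these then spent 2 further days in 1% oxygen (SH). The sample titles call all 4 groups EGFP+, whereas the methods apply that term to the sorted groups. A legend of the study calls the 3 replicates of each group independent, without stating whether they were separately derived cultures. Tests therefore measure the spread between these libraries, and how much of it is technical is unknown.

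The mouse mitochondrial genome is a circle that is transcribed from both strands into long precursors, and these are cut, mostly at the tRNAs, into mRNAs, rRNAs and tRNAs. The 13 mRNAs encode core subunits of 4 of the respiratory complexes, whose other subunits are made from nuclear genes, and the rRNAs and tRNAs serve translation inside the organelle. Most of these mRNAs carry short poly(A) tails. Oxygen is consumed at complex IV, and lower respiration is a known part of the response of many cells to hypoxia.

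Values are TPM, a transcript level per unit of length scaled to sum to 1000000 in every library, so that a gene's share of a library and its level move with every other gene. Libraries were made from poly(A)-selected RNA with a kit that keeps strand. TPM carry no read number, so the depth is unknown and error is given as the spread between libraries. In bulk RNA, fewer cells with a transcript and less of it per cell cannot be told apart.

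Across the series, between 18901 and 22369 rows were above 0 in a library, with the highest numbers in SH. Cdkn2a was present in every library, at 196 to 327 TPM in UN, 66.4 to 78.7 in UH, 10.4 to 16.5 in SN and 7.37 to 9.32 in SH. The 9 hepatic markers summed to 97 to 177 TPM in SH and 117 to 290.2 in UN, mostly from the keratin genes Krt8 and Krt18, while Afp lay at or below 9.80 TPM and Alb at or below 4.23. The 8 endothelial markers summed to 0.549 to 0.68 TPM in UN and 4.74 to 5.43 in SH, with Tek, the gene of Tie2, at 0.124 to 0.141 in UN and 2.83 to 3.29 in SH. The 6 haematopoietic markers summed to 2.75 to 3.97 TPM in UN and 51.6 to 56.7 in SH. The 8 fibroblast markers summed to 5079.7, 1155 and 999.6 TPM in the UN libraries, 4833 to 7105 in UH, 199 to 209 in SN and 56.2 to 77.4 in SH. Replicate 1 of UN thus stood apart from the other UN libraries, and values without it are given where they matter.

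On GRCm38 with the GENCODE M21 annotation, the members lie on chrM between positions 1 and 15422. All mRNAs lie on the plus strand except mt-Nd6 at chrM:13552-14070, which overlaps the end of mt-Nd5 by 14 bases on the opposite strand. The genes have no introns, and the annotation gives the mRNAs no UTRs. mt-Co3, mt-Nd4 and mt-Cytb end in a lone t of the stop codon, which the poly(A) tail is known to complete. mt-Atp8 at chrM:7766-7969 and mt-Atp6 at chrM:7927-8607 share 43 bases, and their transcripts are known to stay joined, so a fragment from the joined transcript can count towards either. The whole of mt-Atp8 is shown because it had the largest fall called in UH vs UN, with the bases it shares with mt-Atp6 in capitals.
mt-Atp8: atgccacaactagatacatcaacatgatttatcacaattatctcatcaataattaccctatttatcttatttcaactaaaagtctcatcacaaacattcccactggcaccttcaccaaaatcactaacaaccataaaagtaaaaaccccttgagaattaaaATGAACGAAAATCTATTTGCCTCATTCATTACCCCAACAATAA

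Of the mRNA rows, 7 share their sequence with pseudogene rows on chromosome 1, between 24611535 and 24616197 on the minus strand, that copy this stretch of the mitochondrial genome at 99% identity or more. They are Gm29216 (bases 1063 to 1545 of mt-Co1), Gm28661 (mt-Co2), Gm10925 (mt-Atp6), Gm28437 (mt-Co3), Gm28438 (mt-Nd3), Gm10222 (mt-Nd4l) and Gm28439 (bases 1 to 876 of mt-Nd4). A fragment inside such a pair can be assigned to either row, and values of these members are therefore uncertain. mt-Nd4l and its copy, at chr1:24612407-24612700, are printed whole to show that they differ only by the stop codon of the member, in capitals.
mt-Nd4l: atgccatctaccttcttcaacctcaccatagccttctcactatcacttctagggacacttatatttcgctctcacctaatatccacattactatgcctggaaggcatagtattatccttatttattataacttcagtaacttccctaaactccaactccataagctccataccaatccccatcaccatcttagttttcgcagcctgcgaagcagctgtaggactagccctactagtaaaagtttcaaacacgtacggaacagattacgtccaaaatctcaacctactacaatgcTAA
Gm10222: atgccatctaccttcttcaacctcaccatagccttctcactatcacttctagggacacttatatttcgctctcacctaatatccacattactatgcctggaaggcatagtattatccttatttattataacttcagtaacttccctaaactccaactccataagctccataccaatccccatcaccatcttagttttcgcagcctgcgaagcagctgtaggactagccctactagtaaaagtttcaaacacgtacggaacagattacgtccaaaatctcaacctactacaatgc
The ends of mt-Co2 and of Gm28661, at chr1:24614885-24615565, are shown for the same reason, since their other bases are identical.
mt-Co2: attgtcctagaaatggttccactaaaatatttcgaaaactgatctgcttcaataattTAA
Gm28661: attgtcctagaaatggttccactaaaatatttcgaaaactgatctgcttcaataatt
Counted from 1 at the start of the member, mt-Co1 and Gm29216 differ by A1066T and mt-Nd3 and Gm28438 by T3C, with the base of the member first and that of the copy last. The stretches around these substitutions are shown with the differing base in capitals.
mt-Co1: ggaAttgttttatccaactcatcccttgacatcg
Gm29216: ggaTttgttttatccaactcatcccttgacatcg
mt-Nd3: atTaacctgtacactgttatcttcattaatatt
Gm28438: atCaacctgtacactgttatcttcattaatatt
A less similar pseudogene, Gm13341 on chromosome 2, matched mt-Co2 at 95.9% identity and had a mean of 2.65 TPM over the libraries, and 3 others had lower means.

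Mitochondrial mRNA took a smaller share of the library in hypoxia in both unsorted and sorted cells. All mt- rows together held 7.55, 5.18 and 5.56% of the TPM in the UN libraries and 1.67, 2.13 and 2.53% in UH, and 8.38, 7.64 and 8.27% in SN and 2.94, 2.66 and 4.68% in SH. Neither pair of normoxic and hypoxic groups overlapped. Of this, the 13 mRNA rows held 6.01% ± 1.24 (SD, n = 3) in UN, 1.99% ± 0.441 in UH, 7.94% ± 0.419 in SN and 3.05% ± 1.02 in SH, so that the mean was 3.02 times as high in UN as in UH and 2.61 times as high in SN as in SH. Among the UN libraries, replicate 1 stood at 7.43% and the others at 5.12% and 5.49%. Replicate 1 was also the UN library with the high fibroblast markers, whose part in the result was not tested, and without it the UN mean was 5.30%. Within SH, replicate 3 held 4.22% against 2.33% and 2.59% in the others. The rRNA rows held far less and went the other way, from 0.0779% ± 0.0218 in UN to 0.116% ± 0.00839 in UH and from 0.149% ± 0.0395 in SN to 0.374% ± 0.073 in SH. The tRNA rows never passed 0.0115%. The 7 near-identical copies held 1.72% ± 0.561 in UN, 0.977% ± 0.0879 in UH, 2.28% ± 0.44 in SN and 1.76% ± 0.136 in SH, a sizeable addition to the mt- rows. With the TPM of both rows added without weighting the shares were 7.82% ± 1.82 in UN, 3.09% ± 0.492 in UH, 10.4% ± 0.701 in SN and 5.18% ± 1.22 in SH.

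**Figure D1:**
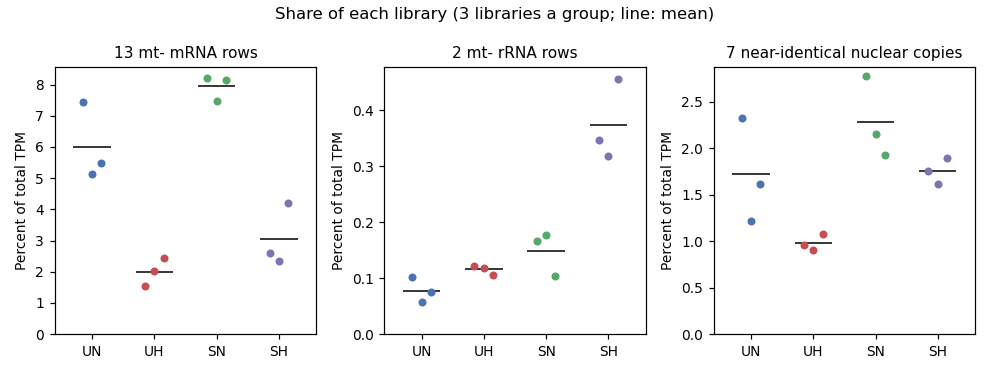
Percent of total TPM in each library (y axes, linear from 0) held by the 13 mt- mRNA rows, the 2 mt- rRNA rows and the 7 near-identical nuclear copies in UN, UH, SN and SH (x axes). Points are libraries and lines are means of 3. The mRNA share is lower in both hypoxic groups than in their normoxic groups with no overlap, while the rRNA share is highest in SH.

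Single genes were tested with limma on log2(TPM + 1) over the 18909 genes whose mean reached 0.1 TPM. A call required a fold above 2 together with a p under 0.05 after Benjamini-Hochberg adjustment. As deposited, 9 of the 13 mRNAs were called lower in UH than in UN, where 11.8% of all genes tested were called lower, and 9 of 13 were called lower in SH than in SN, where 5% were. The median log2 fold change of the 13 was −1.49 in UH vs UN, against −0.19 for all genes tested, and −1.59 in SH vs SN, against 0.03. Every hypoxic library lay below every normoxic library of its arm for 10 of 13 mRNAs in UH vs UN and for 11 of 13 in SH vs SN as deposited, and for 12 and 13 with the copies described above added. Of all genes tested, 51.1% and 56.8% did not overlap in one direction or the other. None of the mRNAs was called higher in either comparison, where 5.46% and 7.47% of all genes were. Median-of-ratios scaling moved the median of all genes in UH vs UN to 0 and that in SH vs UH from 0.17 to 0.03. In UH vs UN it turned the calls over all genes from 1032 higher and 2222 lower to 1564 higher and 1217 lower. It left 8 of the 13 mRNAs called lower in UH vs UN, with mt-Nd2 lost, and 9 in SH vs SN, where 6.44% and 4.76% of all genes were called lower.

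Complex I, the NADH dehydrogenase that feeds electrons into the chain, has 7 subunits among the members. mt-Nd1, part of its membrane arm, stood at 9976, 3922 and 5484 TPM in UN, 1592, 1955 and 2333 in UH, 12566, 11974 and 9082 in SN and 2662, 2596 and 6918 in SH. Every hypoxic library lay below every normoxic library of its own arm, and the log2 fold change was −1.63 (SE 0.39, adjusted p = 0.00489) in UH vs UN and −1.61 (SE 0.39, adjusted p = 0.00622) in SH vs SN by limma. Levels of mt-Nd2, another membrane subunit, were 4505, 2483 and 2745 TPM in UN, 775, 1227 and 1634 in UH, 5634, 4596 and 4557 in SN and 1041, 956 and 3404 in SH. It was called lower in UH by −1.43 (SE 0.44, adjusted p = 0.0178) and in SH by −1.71 (SE 0.44, adjusted p = 0.0082) in limma, but SH replicate 3 was far above the other SH libraries, and without UN replicate 1 or UH replicate 1 the call in UH vs UN was lost. For mt-Nd4, which pumps protons, the values were 3402, 2435 and 2603 TPM in UN, 656, 905 and 1237 in UH, 3537, 3359.6 and 2644 in SN and 933, 846 and 1443 in SH. The groups did not overlap in either comparison, with changes of −1.62 in UH and −1.59 in SH (adjusted p = 0.000249 and 0.000382). mt-Nd5, another proton-pumping subunit, was measured at 2489, 1525 and 1886 TPM in UN, 579, 741 and 972 in UH, 2917, 2449.5 and 2582 in SN and 1001, 901 and 1623 in SH. It changed by −1.37 in UH and −1.22 in SH (adjusted p = 0.000813 and 0.0022), again without overlap.

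mt-Nd6, the only mRNA from the opposite strand, had 3897, 3067 and 2449 TPM in UN, 947, 1109 and 1256 in UH, 4237, 5829 and 6152 in SN and 2192, 1676 and 3829.9 in SH. It moved in the same direction as the plus-strand mRNAs, by −1.49 in UH and −1.14 in SH (adjusted p = 0.000947 and 0.00618), and without SH replicate 2 the second of these was −0.88 and no longer passed the fold. The small subunit genes mt-Nd3 and mt-Nd4l were low and variable as deposited, and most of the signal of each pair sat on the copy row. mt-Nd3 was listed at 36, 29.7 and 14 TPM in UN, 0, 44.3 and 17.5 in UH, 124, 573 and 334 in SN and 77.1, 64.3 and 126 in SH, with UH replicate 1 at 0. Its copy Gm28438 held 2009, 1206 and 1529.7 TPM in UN, 291, 444 and 458 in UH, 3015, 2543 and 2089.8 in SN and 329.7, 295 and 1130.0 in SH, above the level of the member in every library. mt-Nd4l was listed at 157, 116 and 267 TPM in UN, 12.6, 169.7 and 18.5 in UH, 402, 352 and 173 in SN and 123, 11.3 and 48.1 in SH, and UH replicate 2 lay far above the other UH libraries. Gm10222, its copy, held 1491, 669 and 1009 TPM in UN, 212, 228 and 299 in UH, 2029.5, 788 and 1291 in SN and 246, 274 and 528 in SH. mt-Nd3 was not called in either hypoxia comparison (−1.45 and −1.74), and mt-Nd4l was called lower in SH vs SN only, a call lost when any of 4 libraries was left out. Whether the responses of mt-Nd4l differ between the arms was tested as a difference and was −0.53 (SE 1.32, adjusted p = 0.803) in limma.

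mt-Cytb, the one mitochondrially encoded subunit of complex III, was found at 8659, 4022 and 5930.1 TPM in UN, 1766, 2009 and 2748 in UH, 8656, 7954 and 8873 in SN and 3028, 2836 and 4253 in SH. It was called lower in both hypoxia comparisons, by −1.47 in UH and −1.35 in SH (adjusted p = 0.00068 and 0.0015), with no overlap between groups. The ATP synthase, complex V, has mt-Atp6 and mt-Atp8 in its membrane part. mt-Atp6 stood at 10282, 7930.1 and 9556 TPM in UN, 2096, 2809 and 3216 in UH, 12065, 8807 and 12912 in SN and 2168, 2089 and 3587 in SH. All 6 hypoxic libraries lay below all 6 normoxic ones, and the change was −1.79 (SE 0.24, adjusted p = 8.09e-05) in UH and −2.13 (SE 0.24, adjusted p = 3.36e-05) in SH by limma. mt-Atp8 stood at 15318, 13903 and 9401 TPM in UN, 1608, 3425 and 3785 in UH, 17089, 9824 and 16229.8 in SN and 1742, 1716 and 2805 in SH. It fell by 2.19 on the log2 scale in UH and by 2.78 in SH (adjusted p = 0.000283 and 7.29e-05), the furthest of the mRNAs called in UH vs UN, and only mt-Nd4l, a call that rests on single libraries, went as far in SH vs SN.

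Complex IV, cytochrome c oxidase, is where oxygen is reduced, and its 3 members had the smallest median change as deposited, −0.44 in UH and −0.77 in SH. mt-Co1, the catalytic subunit, was measured at 12476, 9032 and 11253 TPM in UN, 2821, 3451 and 5104 in UH, 11294, 10377 and 11063 in SN and 5853, 5889 and 7596 in SH. It was called lower in UH by −1.56 (SE 0.21, adjusted p = 8.88e-05) in limma, while the change of −0.77 in SH (adjusted p = 0.0117) passed the test but not the fold. mt-Co2, which receives electrons from cytochrome c, was measured at 1367, 1027 and 1369 TPM in UN, 1118, 801 and 859 in UH, 1368, 5096 and 3888 in SN and 3469.9, 2647 and 4530.0 in SH. SN replicate 1 lay well below the other SN libraries, and neither hypoxia comparison gave a call (−0.44 and 0.21, adjusted p = 0.393 and 0.727). mt-Co3 was measured at 1773, 1709 and 1899.6 TPM in UN, 1468, 1491 and 1077 in UH, 2237, 3394 and 3025 in SN and 1618, 1121 and 2014 in SH. The groups did not overlap in hypoxia, but the changes of −0.43 and −0.88 did not reach a fold of 2. Only the change in SH passed the limma test (adjusted p = 0.129 in UH and 0.00659 in SH).

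**Figure D2:**
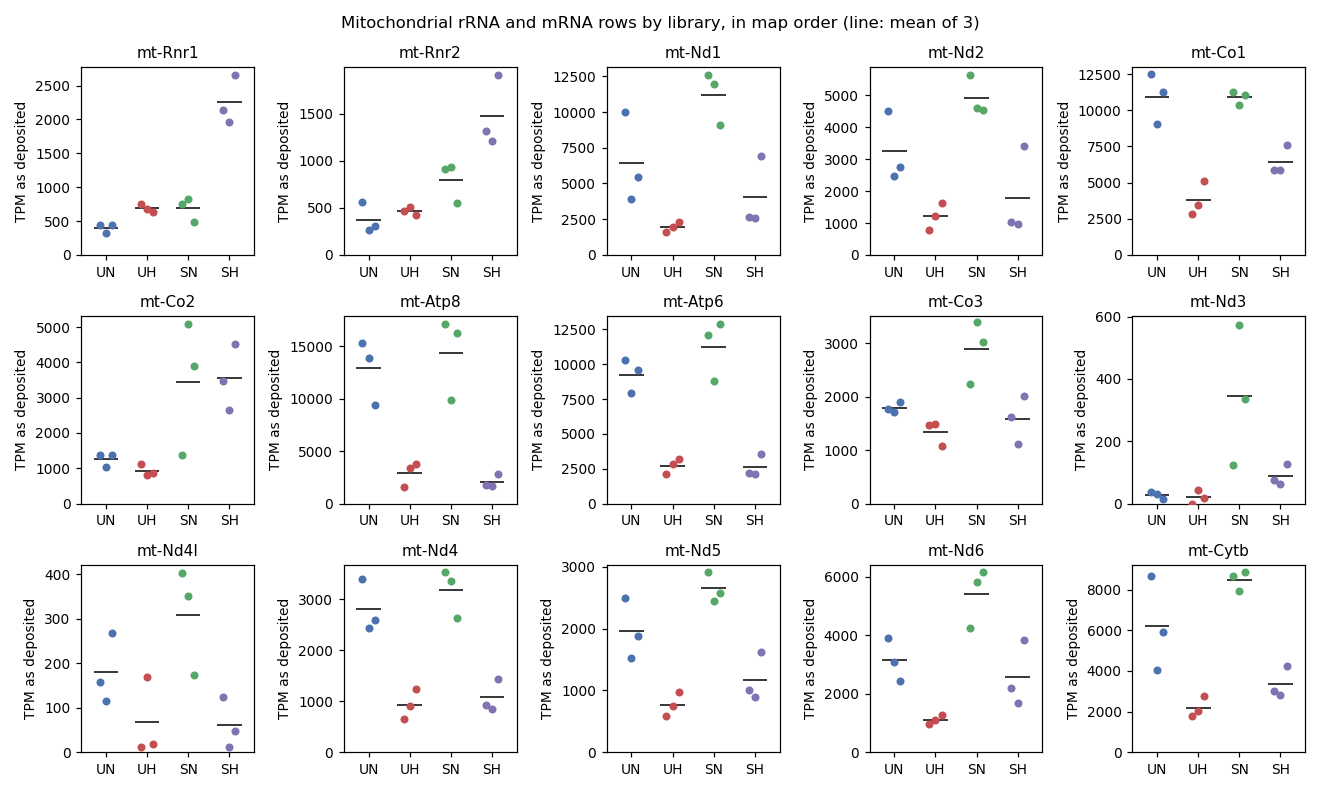
TPM as deposited (y axes, linear from 0) of the 2 rRNA and 13 mRNA rows in map order, for the UN, UH, SN and SH libraries (x axes). Points are libraries and lines are means of 3. mt-Nd1, mt-Atp6, mt-Atp8 and mt-Cytb are lower in hypoxia in both arms, whereas mt-Rnr1 is highest in SH.

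The copies held much of the signal of complex IV and of the small complex I genes. Gm28661 stood at 11160.4, 4353 and 4529.9 TPM in UN, 3536, 3623 and 4888 in UH, 13189.9, 7694 and 7986 in SN and 5563, 5772 and 4665 in SH. Together with mt-Co2 this left 11 to 23.3% of the pair on the mt- row in UN, 15 to 24.1% in UH, 9.43 to 39.9% in SN and 31.5 to 49.4% in SH. SN replicate 1, which had the lowest mt-Co2 of its group, had the highest Gm28661, and mt-Co2 plus the copy weighted by the part of the member it covers came to 14499.8, 12757 and 11839.8 TPM in the SN libraries, much closer together than the mt-Co2 row alone. For mt-Co3 the share on the mt- row ran from 24% in UN to 74% in UH. For mt-Nd3 it ran from 0% in UH to 19.1% in SH, and for mt-Nd4l from 4.01% in SH to 43% in UH. For mt-Atp6 at least 99% stayed on the mt- row, and for mt-Nd4 at least 90.6%.

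The copy of the end of mt-Co1 had another pattern than mt-Co1 itself. Gm29216 stood at 2927, 3497 and 6209.7 TPM in UN, 4566, 4140.1 and 3909 in UH, 4117, 8031 and 5158 in SN and 10761, 8613 and 11125 in SH. Its log2 fold change was 0.07 (SE 0.28, adjusted p = 0.868) in UH vs UN and 0.87 (SE 0.28, adjusted p = 0.0286) in SH vs SN by limma, where mt-Co1 had −1.56 and −0.77. The ratio of Gm29216 to mt-Co1 was 0.235, 0.387 and 0.552 in UN, 1.62, 1.20 and 0.766 in UH, 0.365, 0.774 and 0.466 in SN and 1.84, 1.46 and 1.46 in SH. Every hypoxic library thus had a higher ratio than every normoxic library of its arm. Gm29216 matches only the last 483 bases of mt-Co1, and from which locus or transcript its fragments came cannot be told from these values.

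**Figure D3:**
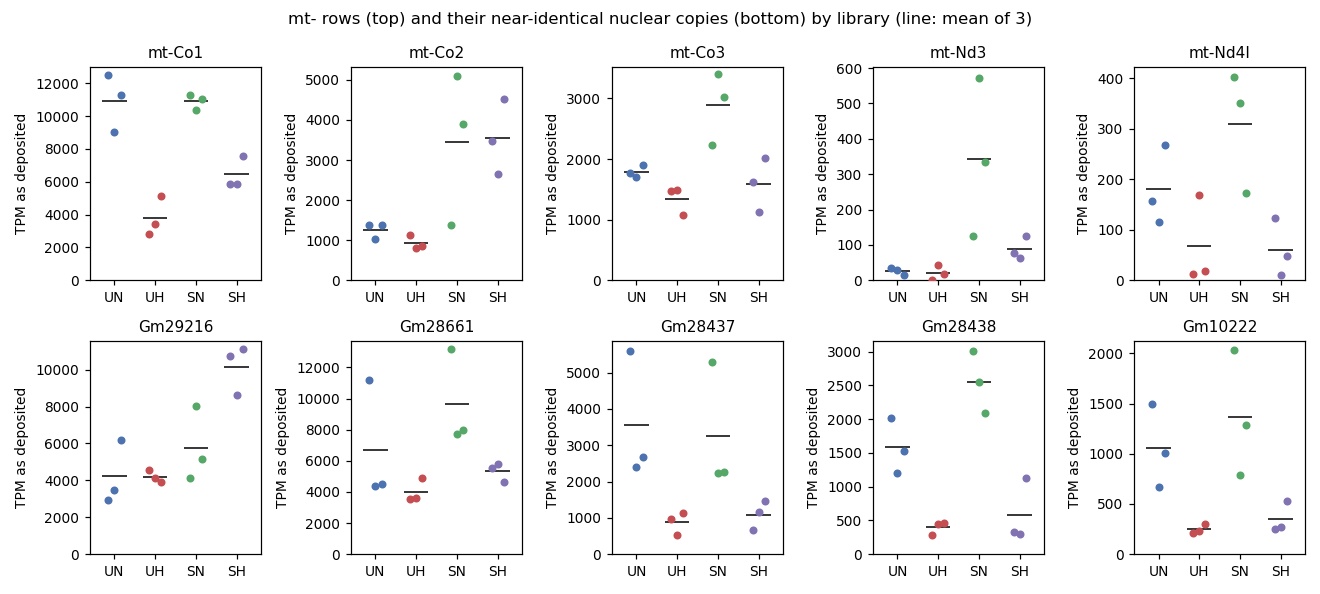
TPM as deposited (y axes, linear from 0) of 5 mt- rows (top) and of their near-identical nuclear copies (bottom) in UN, UH, SN and SH (x axes). Points are libraries and lines are means of 3. The copy rows of mt-Co2, mt-Nd3 and mt-Nd4l exceed their members in all libraries, and Gm29216 is highest in SH, where mt-Co1 is lower than in SN.

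When each copy was added to its member, weighted by the part of the member it covers, more mRNAs were called. Then 12 of 13 were called lower in UH vs UN, all but mt-Co2, and 11 of 13 in SH vs SN, all but mt-Co1 and mt-Co2. Of all genes in that fit, 11.8% and 4.99% were called lower. With the copies, mt-Nd3 changed by −1.95 (SE 0.40, adjusted p = 0.00179) in UH and −2.34 (SE 0.40, adjusted p = 0.000677) in SH by limma. mt-Nd4l changed by −1.95 (SE 0.35, adjusted p = 0.000765) and −2.02 (SE 0.35, adjusted p = 0.000785) by limma, with errors much smaller than as deposited. mt-Co3 changed by −1.23 and −1.21 (adjusted p = 0.00115 and 0.00159), and both were calls, the first lost without UN replicate 1 (−0.97). mt-Co1 changed by −1.27 in UH and −0.41 in SH (adjusted p = 0.000105 and 0.0823), and mt-Co2 by −0.58 and −0.55 (adjusted p = 0.0906 and 0.117). The estimate for mt-Co2 in SH vs SN was therefore positive as deposited and negative with its copy, and it passed the test in neither, although without UN replicate 1 the latter had a limma adjusted p of 0.00531. UN is in neither group of that comparison, so the estimate stayed at −0.55, under a fold of 2. Only the error, which all groups share, changed. With copies and median-of-ratios scaling together, 9 of 13 were called lower in UH vs UN, without mt-Co1, mt-Co2, mt-Co3 and mt-Nd2, and 11 in SH vs SN. All genes were called lower at 6.43% and 4.76% under this setting.

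**Figure D4:**
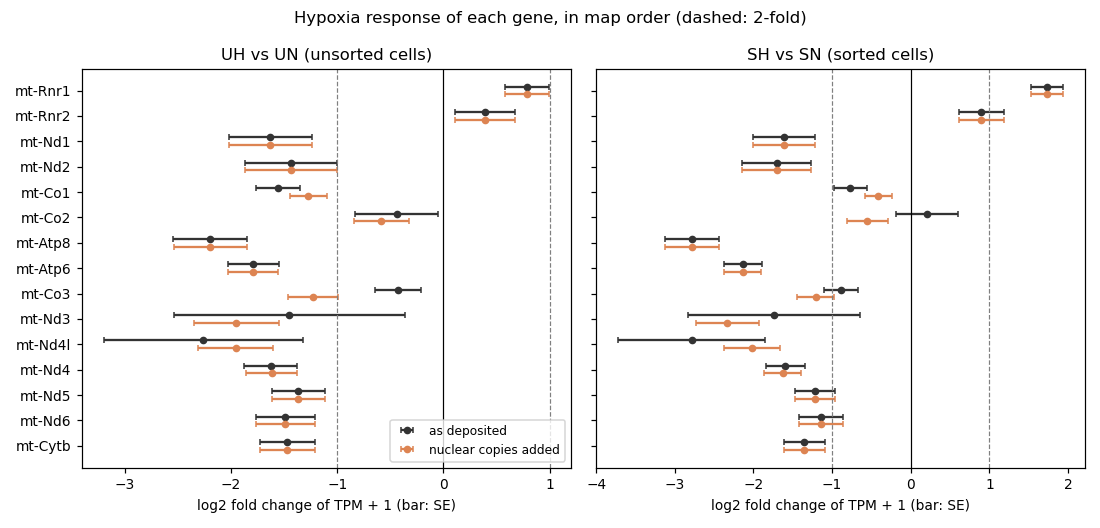
Log2 fold change of TPM + 1 (x axes) of the rRNA and mRNA genes in map order (y axis) in UH vs UN and SH vs SN, as deposited (black) and with nuclear copies added (orange). Points are limma estimates with their SE, and dashed lines mark a fold of 2. The mRNAs lie left of 0 except mt-Co2 as deposited in SH vs SN, and the rRNAs lie right of 0.

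Relative to the summed TPM of the 13 mRNAs with copies added, a measure that scaling between libraries cannot move, mt-Co2 had higher shares and mt-Atp8, mt-Atp6 and mt-Nd3 had lower shares in hypoxia without overlap in both arms. mt-Co2 made up 13.1, 8.80 and 8.82% of the 13 in UN and 21.2, 16.8 and 17.7% in UH, and 13.6, 14.1 and 12.2% in SN and 25, 25 and 17.2% in SH. It was higher in every hypoxic library of both arms than in the matching normoxic libraries. mt-Co1 overlapped between UN and UH but made up 11.8 to 14.3% in SN and 20.7 to 25.6% in SH. mt-Atp8 made up 16, 22.8 and 14.1% in UN and 7.36, 13 and 11.7% in UH, and 16, 10.9 and 16.7% in SN and 4.83, 5.11 and 5.25% in SH. mt-Atp6 also had lower shares in hypoxia without overlap, at 10.8 to 14.5% in UN against 9.62 to 10.7% in UH and 9.78 to 13.4% in SN against 6.03 to 6.72% in SH. mt-Nd3 made up 2.01 to 2.30% in UN against 1.32 to 1.84% in UH and 2.48 to 3.42% in SN against 1.06 to 2.33% in SH. In SH vs SN alone, mt-Nd4l and mt-Nd4 also had lower shares without overlap. The choice of values matters here, since as deposited mt-Atp6 overlapped between UN and UH, mt-Nd3 overlapped in both arms, mt-Nd4l and mt-Nd4 overlapped between SN and SH, and mt-Co3 and mt-Nd5 joined mt-Co2 with higher shares without overlap in both arms. The order of mt-Atp8 and mt-Atp6 turned in SH, where the ratio of their TPM as deposited was 0.782 to 0.821 in all 3 libraries against 1.12 to 1.42 in SN. In UN and UH this ratio overlapped, at 0.984 to 1.75 and 0.767 to 1.22. mt-Atp8 is only 204 bases long. How fragments of the joined transcript were split between mt-Atp8 and mt-Atp6 cannot be told from TPM. mt-Nd5 stayed between 2.50% and 3.04% in all libraries, and mt-Cytb between 6.60% and 9.15%. These shares add to a fixed total, so a rise of one gene lowers the others, and they were not tested.

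Between sorted and unsorted cells the mRNAs differed less. These comparisons use the same libraries as those above. Sorted cells had also been through an earlier 2 days of 1% oxygen and about 10 days of growth, which cannot be told apart from sorting. As deposited, 2 of 13 mRNAs were called higher in SN than in UN, where 3.2% of all genes were, and 3 of 13 in SH than in UH, where 7.65% were. None was called lower, against 7.57% and 5.35% of all genes. Groups did not overlap for 4 of 13 mRNAs in SN vs UN, and 6 of 13 between SH and UH, each with the sorted libraries higher, where 49% and 51.7% of all genes did not overlap in either direction. The called genes in SN vs UN were mt-Co2, by 1.27 (SE 0.39, adjusted p = 0.0259), and mt-Nd3, by 3.49 (SE 1.09, adjusted p = 0.0277), in limma. In SH vs UH they were the same pair, with 1.92 (SE 0.39, adjusted p = 0.00218) and 3.20 (SE 1.09, adjusted p = 0.0343) in limma, and mt-Nd6. The call of mt-Co2 in SN vs UN and both calls of mt-Nd3 were each lost in 4 of the 6 fits that left out a library of the groups compared. With the copies added the calls of mt-Co2 and mt-Nd3 were lost in both, at 0.83 and 0.87 in SN vs UN, and 0.86 and 0.48 between SH and UH. Of these, mt-Co2 still passed the limma test in both (adjusted p = 0.03 and 0.0213) and missed only the fold. For mt-Nd3 the test was not passed (adjusted p = 0.119 and 0.361). No mRNA was called in SN vs UN with the copies added. mt-Nd6, which has no such copy, remained the single call in SH vs UH, at 1.14 (SE 0.28, adjusted p = 0.00633) in limma. This call was lost without SH replicate 3 and with median-of-ratios scaling. mt-Co1 passed the test in SH vs UH with a change under a fold of 2 (0.80 as deposited and 0.93 with its copy, adjusted p = 0.0096 and 0.00131). In SN vs UN it lay at 0.01. The median of the 13 was 0.65 in SN vs UN, and 0.60 between SH and UH as deposited, against −0.06 and 0.17 over all genes. Without UN replicate 1, mt-Nd1 was also called higher in SN vs UN, at 1.26. With the copies added, mt-Co2 was called higher there as well, at 1.21.

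The 2 mitochondrial rRNAs, the RNA cores of the small and large subunits of the organelle's ribosome, had positive changes in hypoxia, where the mRNAs had negative ones except mt-Co2 in SH vs SN (0.21 as deposited). mt-Rnr1 at chrM:70-1024 had 449, 318 and 441 TPM in UN, 756, 677 and 635 in UH, 758, 832 and 483 in SN and 2141, 1967 and 2651 in SH. UH lay above UN and SH above SN with no overlap, and the change was 0.79 (SE 0.20, adjusted p = 0.00766), under a fold of 2, in UH and 1.73 (SE 0.20, adjusted p = 5.28e-05), a call, in SH by limma. Median-of-ratios scaling raised the first to 1.14 (adjusted p = 0.00283), which is a call. mt-Rnr2 at chrM:1094-2675 had 565, 263 and 303 TPM in UN, 465, 513 and 428 in UH, 911, 936 and 557 in SN and 1319.8, 1214 and 1913 in SH. UN and UH overlapped, and the change was 0.39 (SE 0.28, adjusted p = 0.289) in UH and 0.90 (SE 0.28, adjusted p = 0.025), under a fold of 2, in SH by limma. In SH vs UH both were called higher, mt-Rnr1 by 1.70 and mt-Rnr2 by 1.63 (adjusted p = 5.51e-05 and 0.000764). In SN vs UN mt-Rnr2 was called higher by 1.13 (adjusted p = 0.00933), a call lost without SN replicate 2 or UN replicate 2, and mt-Rnr1 changed by 0.76 (adjusted p = 0.0137). As a percent of the mRNA TPM with copies, the rRNA rows came to 0.953 to 1.12 in UN, 3.29 to 5.58 in UH, 1.07 to 1.96 in SN and 8.55 to 9.60 in SH. The ratio of mt-Rnr2 to mt-Rnr1 was 1.12 to 1.20 in SN and 0.616 to 0.722 in SH, without overlap.

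The rRNAs carry at most short tails, and poly(A) selection keeps little of them. Values of transcripts of nuclear genes that mostly lack a poly(A) tail are given beside them. Only nuclear genes were listed, so the list does not show whether any mt- mRNA lacks a tail. The Hist1h histone genes summed to 190.0, 182 and 192 TPM in UN, 641, 592 and 562 in UH, 554, 459 and 579 in SN and 1230.5, 1281 and 1699 in SH. Of 57 tested genes in a list of 61 whose transcripts mostly lack a tail, 11 were called higher and 1 lower in UH vs UN, while between SH and SN 26 were called higher, 0 lower. The shares called higher were 19.3% and 45.6%, against 5.46% and 7.47% of all genes. Between sorted and unsorted cells 16 were called higher in SN and 32 in SH, with 0 lower, which is 28.1% and 56.1% against 3.2% and 7.65% of all genes. The nuclear-retained Malat1 and Neat1 summed to 495 to 842 TPM in UN, 858 to 1485 in UH, 912 to 1305 in SN and 1626 to 2634 in SH. The part of selection for poly(A) in the rise of the rRNA rows, or in the changes of any mRNA row, mt-Nd6 included, was not tested.

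**Figure D5:**
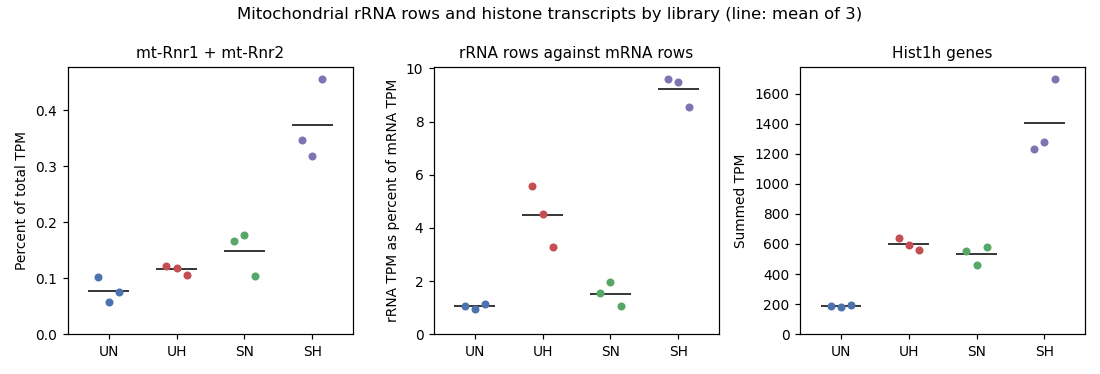
Percent of total TPM of mt-Rnr1 and mt-Rnr2 summed, their TPM as a percent of the mRNA TPM with copies, and the summed TPM of the Hist1h genes (y axes, linear from 0) in UN, UH, SN and SH (x axes). Points are libraries and lines are means of 3. The means of all 3 measures are highest in SH and lowest in UN.

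The 22 tRNA rows, 59 to 75 bases long, were close to empty. Of their 264 values, 230 were 0, and 10 tRNAs were at 0 in every library. The highest value was 61.5 TPM, for mt-Ts1 in SN replicate 3. mt-Ts1 (serine) was above 0 in 8 libraries, with 30.9, 14.3 and 6.58 TPM in SH and 0, 13.4 and 61.5 in SN. mt-Ty (tyrosine) was above 0 in 6 libraries, with 20.1, 55.2 and 36.2 TPM in SN and 59.4 in UN replicate 1. Both flank mt-Co1 on the opposite strand, and mt-Ts1 shares 3 bases with it. mt-Tn (asparagine) was above 0 in 4 libraries, mt-Tm (methionine) and mt-Tp (proline) in 3 each, and mt-Tq (glutamine), mt-Tc (cysteine) and mt-Te (glutamate) in 2 each. The filter on low values was passed by 12 tRNAs. mt-Tq had an estimate called lower in UH and also in SN relative to UN, on values of 8.74 and 6.90 TPM in UN and 0 in all other libraries, UN replicate 1 included. mt-Te was called higher in SN vs UN and lower in SH vs SN, on 8.95 and 4.39 TPM in SN and 0 elsewhere. Neither separates its groups, and no fold is given for them.

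Nuclear genes for subunits of the same complexes had smaller median changes in hypoxia. Of 75 listed, 10 were called lower and 2 higher in UH vs UN, and 5 lower and 3 higher in SH vs SN, with medians of −0.58 and −0.44. The counts called lower came to 13.3% and 6.67% of the list, near the shares of all genes given above. By complex, medians in UH vs UN were −0.50 for complex I, −0.70 for III, −0.53 for IV and −0.58 for V, and those of the mitochondrial members with copies were −1.61, −1.47, −1.23 and −1.99. In SH vs SN the nuclear medians were −0.34, −0.44, −0.44 and −0.64, and the mitochondrial ones −1.63, −1.35, −0.55 and −2.46. The difference between the nuclear and mitochondrial sets was not tested. Median-of-ratios scaling gave 3 nuclear calls in UH vs UN in place of 12.

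Among nuclear subunit genes, 4 were called lower in both hypoxia comparisons. Ndufa4, a subunit associated with complex IV, went from 417 to 452 TPM in UN to 129 to 173 in UH and from 318 to 346 in SN to 82.2 to 108 in SH. Cox5a of complex IV changed by −1.14 and −1.13, and Atp5g1 and Atp5g3, which encode the same ring subunit of complex V, by −1.23 and −1.14 in UH and −1.08 and −1.39 in SH. Called lower in UH vs UN alone were Ndufa5 (−1.11), Ndufab1 (−1.19), Ndufc1 (−1.05) and Ndufs6 (−1.16) of complex I and Cyc1 (−1.21) and Uqcrb (−1.07) of complex III, and in SH vs SN Atp5k (−1.17) of complex V, and whether these differ between the arms was not tested. In the other direction, Ndufv3 of complex I went from 213 to 259.7 TPM in UN to 784 to 1023 in UH and from 263 to 324 in SN to 839 to 1039.9 in SH. The muscle isoforms Cox7a1 and Cox6a2 were low, with Cox7a1 at 7.50 to 23 TPM in UH and 15.7 to 25.5 in SH against 0 to 1.90 in UN and 3.57 to 6.24 in SN. Cox6a2 was called higher in SH vs SN and SH vs UH, at 3.16 to 4.32 TPM in SH and 1.28 or less in the other groups. In SN vs UN, Ndufb6 of complex I was called lower (−1.41) and Cox7a1 higher (1.59).

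Of 43 genes that transcribe, replicate, process or degrade mitochondrial nucleic acid or regulate these genes from the nucleus, 5 were called lower and 0 higher in UH vs UN, and 1 lower and 0 higher in SH vs SN. The counts called lower were 11.6% and 2.33% of the list, against 11.8% and 5% of all genes, so neither exceeded the background. In limma, an unadjusted p under 0.05 was reached in either direction by 23 and 28 of them, 53.5% and 65.1% of the list against 52.7% and 48.4% of all genes. Tfam, which packages mitochondrial DNA and starts its transcription, stood at 50.8, 36.4 and 41.9 TPM in UN, 36.3, 33.8 and 39.9 in UH, 59, 47.9 and 45 in SN and 32.7, 31.4 and 32.1 in SH. It was not called, with −0.21 (SE 0.13, adjusted p = 0.22) in UH and −0.63 (SE 0.13, adjusted p = 0.00277), under a fold of 2, in SH by limma. Polrmt, the RNA polymerase of the organelle, was measured at 26, 21.2 and 21 TPM in UN, 19, 17.9 and 18.1 in UH, 38, 45.5 and 35.5 in SN and 34.4, 31.5 and 40.4 in SH. Its hypoxic changes of −0.29 and −0.16 did not pass the test (adjusted p = 0.0875 and 0.363), and it was higher in sorted cells by 0.78 in SN vs UN, and 0.91 between SH and UH (adjusted p = 0.000755 and 0.00019), under a fold of 2. Lrpprc, which binds and stabilises mitochondrial mRNAs, was measured at 32.2, 34.2 and 36 TPM in UN, 15.8, 20.2 and 26.9 in UH, 49.7, 41.8 and 46 in SN and 27.8, 33.7 and 26.9 in SH. It passed the test in both hypoxia comparisons with changes under a fold of 2, −0.71 and −0.62 (adjusted p = 0.00402 and 0.0101).

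Among the called genes of this list, Pprc1, a coactivator of the PGC-1 family, was the one called lower in both arms, from 56.2 to 63.2 TPM in UN to 18.2 to 29.8 in UH and from 83.5 to 97.3 in SN to 37.7 to 50.9 in SH. In UH vs UN, Mterf3 (−1.45), a negative regulator of mitochondrial transcription, Elac2 (−1.05), which cuts the 3' ends of tRNAs, and Pnpt1 (−1.13) and Rexo2 (−1.13), which degrade mitochondrial RNA, were also called lower. Ppargc1a, which encodes PGC-1α, was low but higher in SN than in UN, at 8.46 to 12.9 against 3.54 to 3.93 TPM, and was called higher in SH vs UH on overlapping values of 4.93 to 9.24 and 1.35 to 5.08 TPM. Esrra, a nuclear receptor that works with it, was higher in SH than in UH, at 43 to 44.9 against 18.1 to 20.5 TPM.

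The difference between the hypoxia responses of sorted and unsorted cells, (SH − SN) − (UH − UN), was tested in the same fit and gave no call for any member, where 10.3% of all genes were called, 1527 higher and 412 lower. Median-of-ratios scaling turned these into 901 higher and 782 lower. mt-Rnr1 alone passed the test as deposited, with a larger rise in sorted cells by 0.94 (SE 0.29, adjusted p = 0.0376) on the log2 scale in limma, under a fold of 2. It no longer passed with median-of-ratios scaling (0.60) or in 7 of 12 fits that left out a library. With copies added, mt-Co1 fell less in sorted cells, by 0.86 (SE 0.25, adjusted p = 0.0288) in limma, against 0.79 (SE 0.30, adjusted p = 0.0782) as deposited. With copies, the mt-Co1 difference was also under a fold of 2 and passed in only 4 of 12 fits that left out a library. Median-of-ratios scaling brought it to 0.51, which no longer passed. For mt-Atp8 the difference was −0.59, with a 95% interval from −1.65 to 0.48, and for mt-Nd4 it was 0.03, from −0.75 to 0.81. A p that missed the threshold therefore does not show equal responses. Hypoxia in SH was also a repeat exposure, and this cannot be told apart from sorting.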

How the data were processed

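RNA of 12 libraries was poly(A)-selected, prepared with a stranded kit and sequenced as paired ends, and per the labels the genome was mm10. The authors quantified it with Salmon in an nf-core pipeline and deposited gene TPM, which sum to 1000000 in each library. The annotation release they used was not given in the sources used here, and 45143 of 45706 gene identifiers were found in GENCODE M21 on GRCm38, which supplied positions and sequences.

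Groups followed the labels. The members and gene lists were chosen with earlier results of these data known. Four-group means were fitted to log2(TPM + 1) with limma 3.58.1 in R 4.3.3 (trended empirical Bayes), for genes averaging 0.1 TPM or more, with Benjamini-Hochberg adjustment over all genes and two-sided tests. The pseudocount makes fold changes of low genes too small. Genes named were all members, their near-identical copies (99% identity or more over at least 100 bases) with a mean of at least 1 TPM, every listed pathway gene that was called, and Tfam, Polrmt and Lrpprc. tRNAs below a mean of 1 TPM were counted only. Copies were added to members as an alternative, which left 18902 genes. Other alternatives changed the pseudocount, filter, scaling, libraries, replicate block and trend.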

Additional observations from a re-analysis of the deposited data

Results flagged for a closer look

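The difference between the hypoxia responses of sorted and unsorted cells passed its own test for 2 measures, both under a fold of 2. Neither passed in every fit given below. For mt-Rnr1 the rise in SH vs SN exceeded that in UH vs UN by 0.9428 on the log2 scale (SE 0.29, limma adjusted p = 0.0376). Over the fits that each left out 1 library it ranged from 0.70 to 1.10, and it passed in 5 of 12. It was 0.60 (adjusted p = 0.251) with median-of-ratios scaling and 0.82 (adjusted p = 0.0758) with quantile normalization, and it also no longer passed with a replicate block (adjusted p = 0.0546) or with no filter on low values (adjusted p = 0.0659).

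For mt-Co1 with its nuclear copy added, the fall in SH vs SN was smaller than that in UH vs UN by 0.8597 on the log2 scale (SE 0.25, limma adjusted p = 0.0288). Without single libraries it ranged from 0.74 to 1.02 and passed in 4 of 12 fits, and with median-of-ratios scaling it was 0.51 (adjusted p = 0.27). As deposited, without the copy, it was 0.79 (adjusted p = 0.0782), and quantile normalization gave 1.37 (adjusted p = 0.026).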

How the results depend on the processing

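The 13 mRNAs called lower numbered 8 to 10 in UH vs UN and 7 to 10 in SH vs SN when any 1 library was left out. Depth is unknown, so counting error could not be given, and every adjusted p rests on 3 libraries a group. After the group mean of each gene was subtracted, same-numbered libraries of different groups correlated at −0.063 to 0.14, so the numbers were not taken as pairs. A replicate block moved no count by over 1.5 times, and 5 pairwise single-gene results lost their adjusted p under it (mt-Nd4l in SH vs SN, mt-Co3, mt-Nd6, Ndufa4 and Ndufa5 in SN vs UN), as did the difference of mt-Rnr1. With the block and copies together, 2 members and 0 mRNAs were called higher in SN vs UN, and 3 members and 1 mRNA in SH vs UH. Causes of the changes below were not tested.

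A pseudocount of 0.1 gave 1580 genes called higher in UH vs UN, 2854 in SH vs SN, 990 with 2402 lower for SN against UN, and 2810 with 1550 lower for SH against UH, with 1 mRNA higher in SN vs UN, 3 genes of mitochondrial DNA expression called in SH vs SN and 3 in SN vs UN, and 3 nuclear subunit genes in SH vs UH. Median-of-ratios scaling gave 1564 higher and 1217 lower in UH vs UN, with 1 member higher (also with copies), 3 nuclear subunit genes and 1 expression gene called. It gave 2 and 0 of these for SH against UH, while it left 901 higher and 782 lower for the difference. Quantile normalization gave 1343 lower in UH vs UN with 6 nuclear subunit and 1 expression gene, 2 expression genes in SN vs UN and 1 for SH against UH, while it left 772 higher and 745 lower for the difference, with 1 member, an mRNA, higher. Without a filter, 1 member and 0 mRNAs were higher in SN vs UN.

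With copies added, 2 members and 0 mRNAs were higher in SN vs UN and 3 members and 1 mRNA in SH vs UH. With median-of-ratios scaling as well these were 2 and 0 for SN against UN, and 2 and 0 for SH against UH. Fits of only the groups compared gave 1 member, an mRNA, higher and 0 lower for SN against UN, and 1 expression gene for SH against UH. Leaving out the mitochondrial tRNA and rRNA rows removed these members from the count, so it cannot show whether their calls depend on processing. It left the mRNA calls. These were 0 higher in SH vs SN, 2 higher and 0 lower for SN against UN, and 3 higher for SH against UH. Expression genes called in SH vs SN were 2 with mt- rows out of the total and 0 without the 20 highest other rows.

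With copies added in proportion to the part of the member they cover, all mt- rows held 7.54% in UN, 2.80% in UH and 10.01% in SN, and the mRNA rows 7.46%, 2.69%, 9.85% and, in SH, 4.13%. Without the 20 highest other rows SN held 8.93% and 8.76%.

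Leaving out 1 library each gave 335 to 636 genes lower for the difference, 1266 to 2110 higher, 0 to 5 members and 0 to 3 mRNAs higher and 0 to 2 members lower in SN vs UN, 3 to 6 members and 1 to 4 mRNAs higher in SH vs UH, 1 to 2 members higher in SH vs SN, and 0 to 1 member higher or lower for the difference. Expression genes numbered 1 to 2 in SH vs SN and SH vs UH, and nuclear subunit genes 1 to 2 in SH vs UH, 1 to 3 in SN vs UN, 8 to 12 in SH vs SN and 11 to 17 in UH vs UN. With copies, mt-Nd3 in SH vs UH turned to −0.0895 (adjusted p = 0.813) without SH replicate 3, and mt-Co2 in SH vs SN was −0.55 (adjusted p = 0.00531) without UN replicate 1. UN is in neither group of the latter comparison, so only the error shared by all groups changed there.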
